A study of Mus musculus with 36 samples.

Results

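The 10 genes described here are targets of the transcription factor NRF2 and metallothioneins, followed through the unmyelinated optic nerve (UON), the myelinated optic nerve (MON) and the retina of the mouse. They are a fixed list of gene symbols, applied with no threshold on a measured value, and are 10 of the 55487 genes in the count table. Nqo1, Gclc, Gclm, Txnrd1, Srxn1, Slc7a11 and Gpx1 are antioxidant genes, and Mt1, Mt2 and Mt3 are metallothioneins. All 10 passed the filter on low counts in all 39 comparisons made.

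Bulk RNA-seq was available for 36 libraries, 12 per tissue, from C57BL/6 mice of 2 to 4 months, for which the labels name no transgene or engineered allele. Every tissue was taken from naïve mice, from mice 3 days (3D) or 2 weeks (2W) after optic nerve crush, and from mice 3D, 2W or 6 weeks (6W) after microbeads were injected into the eye to raise its pressure (called glaucoma here, as in the labels). Injury was on 1 side, and naïve tissue came from separate, uninjured mice. A group was 1 library from the pooled RNA of 2 female mice and 1 from that of 2 male mice. Each comparison therefore rests on n = 2 pools, and a pool stands for both its animals and its sex. UON and MON were dissected as pieces of tissue, with no sorting of cells. Library totals were 16.2 to 58.5 M (mega) estimated counts in UON, 16.3 to 78.1 M in MON and 19.9 to 56 M in retina. The marker sums of photoreceptors and oligodendrocytes followed the labels. The 7 photoreceptor genes summed to 21180 to 28280 FPKM (fragments per kilobase of transcript, scaled to library size) in retina and at most 112.3 in nerve. The 8 oligodendrocyte genes summed to 5767 to 17720 FPKM in MON, 421.6 to 5456 in UON and at most 28.6 in retina. Other lists did not all do so. The 6 Müller glia markers summed to 2147 to 3464 FPKM in UON and 819.7 to 1058 in retina. The 5 pigment markers reached 20.05 FPKM in the male UON crush 2W pool, against at most 18.51 in retina.

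NRF2 is a transcription factor that the adaptor KEAP1 holds at a low level by marking it for degradation. Oxidants and electrophiles modify KEAP1, NRF2 then enters the nucleus, pairs with small MAF proteins and binds antioxidant response elements, which BACH1 can occupy as a repressor. Its targets supply glutathione and thioredoxin and remove quinones and peroxides. Metallothioneins are small proteins rich in cysteine that bind zinc and copper, and Mt1 and Mt2 are induced by metals through MTF1 and also by glucocorticoids and by STAT3. In the central nervous system Mt1 and Mt2 are mainly known from astrocytes and other glia, and Mt3 is the form typical of brain tissue.

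Among the genes of glutathione supply, Slc7a11 (chr3:49892526-50443614, minus strand) encodes the cystine carrier of the cystine/glutamate exchanger. Gclc (chr9:77754535-77794485, plus) and Gclm (chr3:122245557-122270732, plus) encode the catalytic and modifier subunits of glutamate-cysteine ligase, which starts glutathione synthesis. Txnrd1 (chr10:82833951-82897712, plus) encodes the cytosolic thioredoxin reductase, Srxn1 (chr2:152105516-152111376, plus) encodes sulfiredoxin, which repairs oxidised peroxiredoxins, and Gpx1 (chr9:108338903-108340343, plus) encodes a selenium-dependent glutathione peroxidase. Nqo1 (chr8:107388225-107403206, minus) encodes a quinone reductase. Mt3 (chr8:94152607-94154146), Mt2 (chr8:94172664-94173568) and Mt1 (chr8:94179082-94180327) follow each other on the plus strand of chromosome 8. All positions are on GRCm38, as in the deposited tables.

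The coding sequences of the 3 metallothioneins are shown because Mt1 and Mt2 varied together in these data, and the sequences show how alike the pair is and how many cysteines each gene encodes. They come from the Gencode M21 transcripts on GRCm38, and capitals mark cysteine codons.
Mt1: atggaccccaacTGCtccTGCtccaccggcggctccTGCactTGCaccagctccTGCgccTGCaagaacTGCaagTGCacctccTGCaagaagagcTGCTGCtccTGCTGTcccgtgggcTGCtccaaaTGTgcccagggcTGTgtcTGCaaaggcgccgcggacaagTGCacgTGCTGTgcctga
Mt2: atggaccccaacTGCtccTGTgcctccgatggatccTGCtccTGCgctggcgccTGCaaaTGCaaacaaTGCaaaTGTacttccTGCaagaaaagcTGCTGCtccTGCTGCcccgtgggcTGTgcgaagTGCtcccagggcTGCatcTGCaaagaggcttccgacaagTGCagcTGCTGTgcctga
Mt3: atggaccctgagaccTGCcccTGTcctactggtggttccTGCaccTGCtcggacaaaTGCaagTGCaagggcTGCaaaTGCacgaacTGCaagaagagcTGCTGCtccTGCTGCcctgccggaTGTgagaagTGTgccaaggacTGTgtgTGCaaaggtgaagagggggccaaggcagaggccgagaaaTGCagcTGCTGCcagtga
Mt1 and Mt2 each hold 20 cysteine codons among 61, or 32.8%, and these fall at 20 shared positions. The pair is identical at 148 of 186 bases (79.6%). Mt3 holds 20 cysteine codons among 68, or 29.4%, and has an extra codon before its first cysteine codon and further ones near its end.

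In naïve tissue the metallothioneins and Gpx1 were the most abundant of the 10 genes per unit of transcript length, and they were far more abundant in nerve than in retina. Mt1 stood at 3088 FPKM in the female pool and 3563 in the male pool of naïve UON, and at 3014 and 4104 FPKM in naïve MON. In naïve retina Mt1 stood at 272 and 241 FPKM. Mt1 was the highest of the 10 genes in each of the 3 tissues, and in each its 2 pools lay above both pools of the gene ranked next.

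Mt3, Gpx1 and Mt2 followed in UON and MON. In UON their means were 824 ± 83.9, 762.3 ± 486 and 578 ± 138 FPKM (SD, n = 2), and in MON 779 ± 262, 595 ± 98.8 and 566 ± 166. The pools of neighbours in this order overlapped, so the place of Gpx1 was not resolved. Mt3 lay above Mt2 in both UON pools without overlap (764 and 883 against 480 and 675 FPKM). In MON their pools overlapped. Within each naïve nerve library Mt3 was above Mt2, with log2 ratios of 0.67 and 0.388 in UON and 0.406 and 0.498 in MON (female, male). In retina the order was Gpx1 (77.1 ± 3.05 FPKM), Mt3 (51.1 ± 0.259) and Mt2 (34.2 ± 2.90), with no overlap between neighbours.

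The other 6 genes lay at or below 48.1 FPKM in each naïve library. Srxn1 led them in each tissue, at 44.5 ± 5.04 (UON), 18.8 ± 2.28 (MON) and 18.5 ± 5.36 FPKM (retina). Txnrd1 (14.6, 10.7 and 6.81 FPKM), Gclm (8.51, 9.81 and 7.14) and Gclc (7.68, 5.82 and 6.56) lay closer together between tissues. Nqo1 was at 6.97 (UON), 8.33 (MON) and 2.51 FPKM (retina), and Slc7a11 at 9.54, 1.48 and 0.488 FPKM in the same order.

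**Figure D1:**
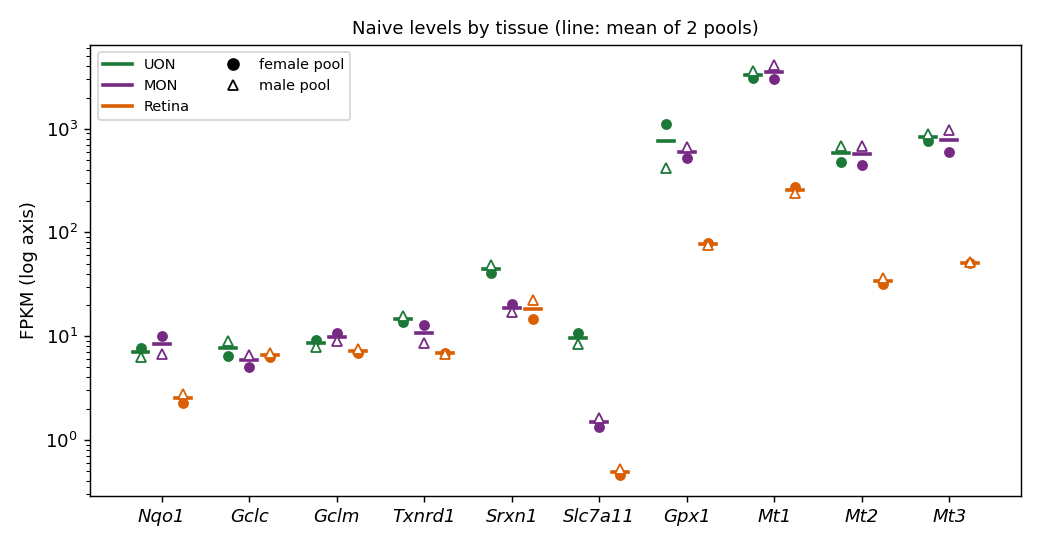
FPKM of the 10 genes in the 6 naïve libraries, on a log axis, by tissue (colour), with circles for the female pool, open triangles for the male pool and a line for their mean. Mt1 is the highest gene in each tissue, with means of 3326 (UON), 3559 (MON) and 257 FPKM (retina), and Slc7a11 is the gene with the widest gap between UON and MON.

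The first comparison asked how the 2 nerve regions and the retina differed before injury. Against retina, 8 of the 10 genes were called higher in UON and 7 in MON, and none was called lower in nerve. A call is an adjusted p under 0.05 with a log2 fold change beyond 1, from edgeR's quasi-likelihood test with Benjamini-Hochberg adjustment over all genes tested. By the same rule 31.7% of all genes tested were called in the UON comparison (18.2% higher in UON, and 37.7% by DESeq2) and 27.6% in the MON comparison (16.7% higher in MON). In CPM (counts scaled to a common library size with TMM factors), all 10 genes lay higher in nerve than in retina without overlap of pools, as did 35.6% of all genes for UON and 34.6% for MON, while 42.3% of all genes lay lower in UON without overlap. In FPKM, Gclc overlapped retina in both nerve regions and Srxn1 overlapped it in MON, and the other genes did not overlap. An unadjusted edgeR p under 0.05 was held by 44.6% of all genes for UON against retina. In bulk tissue a difference in how many cells of a type are present and a difference in RNA per cell cannot be told apart. The 8 astrocyte markers summed to 6310 and 7028 FPKM in naïve UON, 4622 and 3815 in naïve MON, and 120 and 124 in naïve retina, and the part of cell makeup in the differences between nerve and retina was not tested.

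The metallothioneins had the widest gaps beside Slc7a11. Mt1 was 2141 and 2586 CPM in UON (female, male), 2330 and 2790 in MON, and 146 and 126 in retina. Its log2 difference from retina was 4.07 ± 0.30 (SE) in UON (edgeR adjusted p = 7.95e-05) and 4.22 ± 0.30 in MON (edgeR adjusted p = 8.8e-05). Mt2 was 307 and 455 CPM in UON, 322 and 429.5 in MON and 15.9 and 17.5 in retina, with log2 differences of 4.44 and 4.47. Mt3 was 509 and 621 CPM in UON, 444 and 632 in MON and 26.3 and 25.9 in retina, with log2 differences of 4.38 and 4.34. Between UON and MON the metallothioneins overlapped, with log2 differences from -0.16 to 0.04.

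Gpx1 showed the same order with a wider spread. It was 1445 and 544 CPM in UON, 771 and 867 in MON and 82.4 and 75.5 in retina. The log2 difference from retina was 3.53 ± 0.44 in UON (edgeR adjusted p = 0.00083) and 3.40 ± 0.43 in MON (edgeR adjusted p = 0.00105). The female UON pool stood well above the male pool. Nqo1 was 14.8 and 13.0 CPM in UON, 21.8 and 12.8 in MON and 3.40 and 4.07 in retina, with log2 differences from retina of 1.84 (edgeR adjusted p = 0.00773) and 2.17 (edgeR adjusted p = 0.00451). Over all 36 libraries, injured ones included, the 24 nerve libraries lay above the 12 retina libraries in CPM for Nqo1, Gpx1, Mt1, Mt2, Mt3 and Txnrd1, as for 9.28% of 30097 genes. In FPKM this held for the same genes other than Txnrd1, and for 6.39% of all genes. The lowest nerve library exceeded the highest retina library for Nqo1 by 7.23 against 4.62 CPM, and for Mt1 by 915.5 against 323.

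Slc7a11 was the only one of the 10 genes called between UON and MON, where 9.63% of all genes were called by edgeR (4.83% higher and 4.8% lower in UON) and 16.6% by DESeq2. In CPM with the TMM factors of this fit, 2 of the 10 genes lay higher and 1 lower in UON without overlap, against 25.8% and 28% of all genes. In the CPM printed per pool, which use factors over all 36 libraries, no gene of the 10 lay lower without overlap. Slc7a11 was 102 and 89.4 CPM in UON, 15.7 and 14.7 in MON and 3.67 and 2.83 in retina, with no overlap between tissues. Its log2 difference was 2.61 ± 0.23 between UON and MON (edgeR adjusted p = 0.0016), 4.85 for UON over retina and 2.23 for MON over retina. In a fit of all 36 libraries together the UON to MON difference was 2.70 with an edgeR adjusted p of 0.0875, and the MON to retina difference was 1.83 with an edgeR adjusted p of 0.164. On log2(FPKM + 1) the MON to retina difference was 0.73, with a limma adjusted p of 0.0613. Adding 1 narrows a difference between means of 1.48 and 0.488 FPKM, and on log2(FPKM + 0.1) the call was kept. The 6 fibroblast markers of sclera and meninges summed to 547 and 568 FPKM in naïve UON and 141 and 89.6 in naïve MON. The oligodendrocyte markers summed to 2535 and 1867 FPKM in naïve UON and 17720 and 13870 in naïve MON. The part of cell makeup in the Slc7a11 difference between UON and MON was not tested.

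The thioredoxin and glutathione ligase genes differed less. Txnrd1 was 41.0 and 49.6 CPM in UON, 41.0 and 21.9 in MON and 18.4 and 15.4 in retina. It was called higher in UON than in retina (log2 1.41, edgeR adjusted p = 0.0105), and the MON difference was not called (log2 0.87, edgeR adjusted p = 0.0721). The first call was lost without the male UON pool (log2 0.9987, edgeR adjusted p = 0.103), and without the male MON pool the second comparison was called (log2 1.303, edgeR adjusted p = 0.0124), while without the female MON pool it was 0.38 (edgeR adjusted p = 0.428).

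Gclm was 57.4 and 52.5 CPM in UON, 76.0 and 56.2 in MON and 30.1 and 33.8 in retina. Its MON to retina difference was called at a log2 difference of 1.04 (edgeR adjusted p = 0.0119), which fell to 0.82 without the female MON pool and to 0.81 without the female retina pool, neither of them called. Of 7 other settings 2 kept the call. It was lost at 0.96 with DESeq2 and 0.97 with RLE scaling, which lie under the fold limit, at 1.08 in a fit of all 36 libraries (edgeR adjusted p = 0.379), and at 0.41 and 0.45 with limma on log2(FPKM + 1) and log2(FPKM + 0.1) (limma adjusted p = 0.121 and 0.128). Gclm shares 14775 bases with Gm17494 on the opposite strand, whose count was 56% of that of Gclm in the median library. It reached 406% in the male UON glaucoma 2W pool, where Gclm had few counts, and 214% in the next library. Mt2 shares 749 bases with the antisense gene Gm45774. The strand of the libraries is not given in the sources used here, so reads of these partners cannot be told apart. Gclc was not called in any naïve comparison, with log2 differences of 0.36, 0.63 and 0.27.

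Srxn1 in naïve tissue depended on the unit. In counts it was 136 and 170.2 CPM in UON, 70.5 and 59.5 in MON, and 10.7 and 55.8 in retina. Its UON to retina difference was called at log2 2.41 (edgeR adjusted p = 0.0171), and this value was 1.44 without the female retina pool and 1.25 on log2(FPKM + 1), both also called. The MON to retina difference was 1.28 in counts (edgeR adjusted p = 0.148), 0.24 without the female retina pool and 0.05 on log2(FPKM + 1). The UON to MON difference was 1.13 in counts (edgeR adjusted p = 0.269) and 1.20 on log2(FPKM + 1), where it was called (limma adjusted p = 0.0224). In counts it was also called without either retina pool (log2 1.20 in both fits), and it was 0.51 without the male and 2.099 without the female MON pool, neither called. The MON to retina difference was called in counts without the male retina pool (2.58), without the male MON pool (2.12) or without either UON pool (1.40 and 1.42).

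The deposited transcript counts show where counts and FPKM of Srxn1 parted. In 30 libraries at most 2.39% of the Srxn1 counts were given to the transcript ENSMUST00000137751, a short processed transcript, and nearly all of the rest to the coding transcript ENSMUST00000041500 of 2812 bases. In 6 libraries the short transcript held 29.8 to 66.5%. These were the female retina naïve pool, both MON glaucoma 6W pools, the female MON glaucoma 3D pool, the female UON crush 2W pool and the male UON glaucoma 3D pool. Their Srxn1 counts per FPKM were 0.229 to 0.382 of the median library, against 0.923 to 1.09 in the other 30. Estimated counts are made from coverage and transcript length, and the FPKM of the pools stand beside the count differences that involve these libraries.

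**Figure D2:**
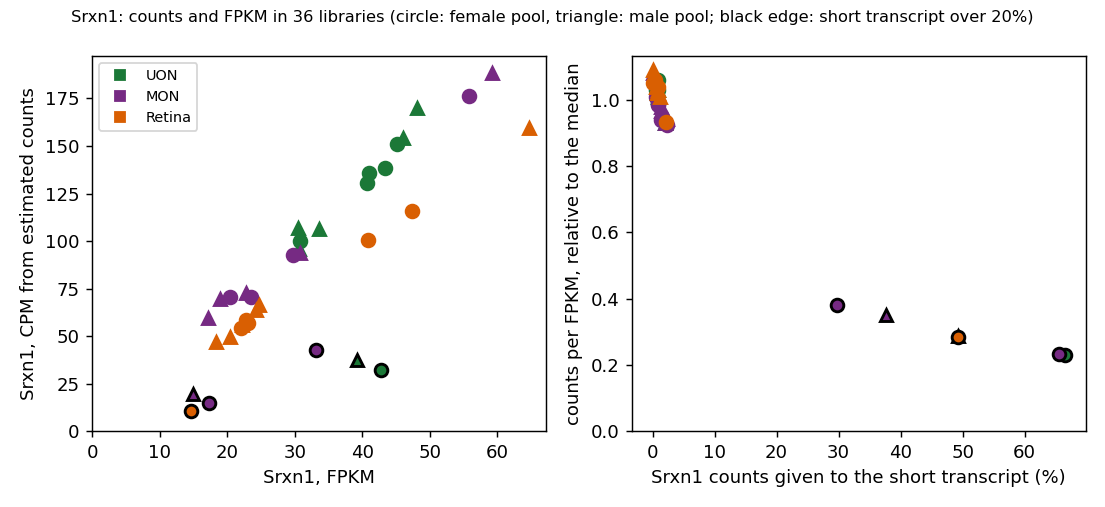
Srxn1 in the 36 libraries. The left panel plots CPM from estimated counts against FPKM, and the right panel plots counts per FPKM (relative to the median library) against the percent of Srxn1 counts given to the short transcript, with colours for tissue, circles for female and triangles for male pools, and black edges on libraries over 20%. The 6 edged libraries, at 29.8 to 66.5%, have fewer CPM at a like FPKM than the other 30.

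The next comparisons asked which of the 10 genes moved after crush of the optic nerve. Of 60 tests (10 genes, 3 tissues, 2 times), 2 were called, and both were in MON at 3D, where 4.26% of all genes were called (3.61% higher). Txnrd1 and Srxn1 rose there. An unadjusted edgeR p under 0.05 was held by 3 of the 10 there and by 21% of all genes. In MON at 2W 2.72% of all genes were called (0.595% lower), and none of the 10, with 1 of the 10 and 16% of all genes at an unadjusted p under 0.05, and with 8.93% of all genes and none of the 10 called by DESeq2. At that time 3 of the 10 lay higher than naïve without overlap, against 26.4% of all genes. DESeq2 called 6 of the 60, and 15 had an unadjusted edgeR p under 0.05.

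Txnrd1 was 80.3 and 81.2 CPM in MON at 3D after crush, against 41.0 and 21.9 in naïve MON. Both crush pools lay above both naïve pools, and above each of the other 34 libraries. The log2 change was 1.51 ± 0.30 (edgeR adjusted p = 0.0362), and on log2(FPKM + 1) it was 1.31 (limma adjusted p = 0.0284). At 2W Txnrd1 was 65.8 and 51.9 CPM, again above both naïve pools, with a log2 change of 0.98 (edgeR adjusted p = 0.14).

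Srxn1 was 176 and 188.5 CPM in MON at 3D after crush, against 70.5 and 59.5 in naïve MON. These were the highest 2 of the 36 libraries in CPM. On the log2 scale the change was 1.57 ± 0.26 (edgeR adjusted p = 0.0221) and was the same in FPKM, at 55.9 and 59.2 against 20.4 and 17.2 (log2 1.57 on log2(FPKM + 1), limma adjusted p = 0.0152). At 2W Srxn1 was 92.9 and 93.8 CPM, with a log2 change of 0.56 (edgeR adjusted p = 0.345).

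Both calls were kept in the 7 other settings tried, but each was lost when 1 of 3 libraries was left out. Without the male crush 3D pool, the log2 change of Txnrd1 was 1.18 (edgeR adjusted p = 0.164) and that of Srxn1 1.46 (edgeR adjusted p = 0.0631). Without the female naïve pool the log2 changes were 1.87 and 1.71 (edgeR adjusted p = 0.103 and 0.116), and without the male naïve pool 1.16 and 1.44 (edgeR adjusted p = 0.252 and 0.156). Depth differed within these groups, with 18.2 and 53.4 M counts after crush and 78.1 and 17.8 M in naïve MON (female, male). In the same libraries the 8 microglia and macrophage markers summed to 1112 and 1429 FPKM after crush and 329 and 418 in naïve MON, the 5 neutrophil and monocyte markers to 2445 and 4778 against 71.5 and 107, and the 8 oligodendrocyte markers to 11820 and 8686 against 17720 and 13870. The part of these cells in the 2 changes was not tested.

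Gclm was lower in MON at 3D. It was 24.1 and 22.3 CPM after crush against 76.0 and 56.2 in naïve MON, so the groups did not overlap, as for 26.3% of all genes in that direction. The log2 change was -1.43 ± 0.38 with an edgeR adjusted p of 0.0828, which was not called, and DESeq2 called it (adjusted p = 0.00354; DESeq2 called 12.3% of all genes). It was also called by edgeR without either crush 2W pool (log2 -1.40 in both fits) or without the female crush 3D pool (log2 -1.67, edgeR adjusted p = 0.0319). Without the female naïve pool it was -0.96 (edgeR adjusted p = 0.396), and on log2(FPKM + 1) it was -0.91 (limma adjusted p = 0.17). At 2W Gclm was 37.8 and 76.7 CPM and overlapped the naïve pools.

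Gclc, the partner subunit, was 14.1 and 12.3 CPM in MON at 3D against 23.6 and 27.2 in naïve MON, with a log2 change of -0.82 (edgeR adjusted p = 0.33). Slc7a11 was 15.8 and 25.9 CPM against 15.7 and 14.7, with a log2 change of 0.47 (edgeR adjusted p = 0.507). Gpx1 was 999.8 and 1011 CPM against 771 and 867, with a log2 change of 0.35 (edgeR adjusted p = 0.765). Nqo1 was 14.0 and 7.23 CPM against 21.8 and 12.8, with overlap between the groups. At 2W Gpx1 was 1022 and 275 CPM, a log2 change of -0.48 that became -1.57 and was called without the female crush 2W pool (edgeR adjusted p = 0.0406), and that was 0.41 without the male crush 2W pool (edgeR adjusted p = 0.799).

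The metallothioneins of MON split between the pools at 3D. Mt1 was 2196 CPM in the female and 915.5 in the male crush pool, Mt2 was 357 and 149.6, and Mt3 was 352 and 101. The male crush pool held the lowest value of the 24 nerve libraries for each of the 3 genes, and also the lowest astrocyte marker sum in MON, at 2315 FPKM against 4448 in the female crush pool. Of 6 MON groups, Mt1, Mt2 and Mt3 were higher in the same pool as the astrocyte sum in 3, 3 and 5. The part of astrocyte content in these values was not tested. Mt3 had a log2 change of -1.22 (edgeR adjusted p = 0.317). Without the male crush pool this value was -0.22, and without the female crush pool it was -2.62 and called (edgeR adjusted p = 0.00284). It was also called without either crush 2W pool (log2 -1.40 in both fits). At 2W the metallothioneins of MON overlapped the naïve pools, with log2 changes from -0.22 to 0.12.

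In UON none of the 10 genes was called after crush, at 3D (0% of all genes called) or at 2W (0.0281%). At 3D none of the 10 had an unadjusted edgeR p under 0.05 (3.07% of all genes), and at 2W 3 had one (9.27%). DESeq2 called none of the 10 at either time, and 1.01% and 2.66% of all genes. At 3D 3 of the 10 lay below naïve without overlap, against 18% of all genes. At 2W the metallothioneins were above naïve in both pools. Mt2 was 634 and 826 CPM against 307 and 455, a log2 change of 0.94 ± 0.31 (edgeR adjusted p = 0.496). Mt3 was 899 and 1035 CPM against 509 and 621, a log2 change of 0.77 (edgeR adjusted p = 0.525). Mt1 was 3530 and 3305 CPM against 2141 and 2586, a log2 change of 0.53 (edgeR adjusted p = 0.65). In CPM these 6 values were the highest of the 36 libraries for their gene, and 19.7% of all genes were higher without overlap in that comparison. In FPKM the ranking held for Mt2 and Mt3, but Mt1 was 4642 in the male crush 2W pool and 4720 in the female UON glaucoma 3D pool. In the UON crush 2W pools the 5 blood markers summed to 6337 and 4614 FPKM, against 298 and 660 in naïve UON. The microglia and macrophage markers were at 890 and 497 FPKM against 248 and 195. Astrocyte markers were at 6198 and 6467 FPKM against 6310 and 7028. In the male pool the fibroblast markers of sclera and meninges summed to 1295 FPKM, against 547.2 and 568.3 in naïve UON. The female pool lay below both naïve pools in that sum. Neutrophil and monocyte markers were at 699.9 and 2922 FPKM (female, male) against 167.6 and 181.7. Pigment markers were at 1.195 and 20.05 FPKM against 0.732 and 4.358, and oligodendrocyte markers at 2617 and 421.6 against 2535 and 1867. The part of cell makeup was not tested.

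At 3D after crush the metallothioneins of UON lay within 0.16 of naïve on the log2 scale. Txnrd1 was 40.0 in both UON pools at 3D, and 43.2 and 20.1 CPM at 2W, against 41.0 and 49.6 in naïve UON, with log2 changes of -0.18 and -0.59. Srxn1 in UON at 2W was 32.0 and 107 CPM against 136 and 170.2 in naïve UON, a log2 change of -1.27 (edgeR adjusted p = 0.532). The lower of these pools is one of the 6 with counts on the short transcript, and in FPKM it was the higher of the pair, at 42.7 against 30.6.

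In the retina none of the 10 genes was called by edgeR after crush, at 3D (0.0221% of all genes called) or at 2W (0.313%), and 4 genes at each time had an unadjusted edgeR p under 0.05 (6.34% and 8.99% of all genes). DESeq2 called 1 of the 10 at 3D, Mt2, and 2 at 2W, Gclm and Mt3, among 0.633% and 1.51% of all genes. Mt2 was 39.6 and 30.2 CPM at 3D against 15.9 and 17.5 in naïve retina. On the log2 scale the change was 1.08 ± 0.19 (edgeR adjusted p = 0.283, DESeq2 adjusted p = 0.000645). Mt1 was 253 and 215 CPM against 146 and 126, a log2 change of 0.80 ± 0.13 (edgeR adjusted p = 0.193). By 2W Mt2 was 25.2 and 26.2 CPM and Mt1 164 and 169, still above both naïve pools, with log2 changes of 0.58 and 0.26.

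Mt3 lay below naïve in the crushed retina, where Mt1 and Mt2 lay above it. It was 19.3 and 18.9 CPM at 3D and 13.1 and 13.2 at 2W, against 26.3 and 25.9 in naïve retina, with no overlap at either time, as for 19% and 20.6% of all genes in that direction. The log2 change was -0.43 at 3D (edgeR adjusted p = 0.772) and -1.02 ± 0.16 at 2W (edgeR adjusted p = 0.0863, DESeq2 adjusted p = 0.000438). It was called at 2W when the sex term was dropped (edgeR adjusted p = 0.0439), and on log2(FPKM + 1) it was -0.97 (limma adjusted p = 0.043).

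Gclm in the crushed retina was 25.3 and 26.0 CPM at 3D and 14.9 and 14.1 at 2W, against 30.1 and 33.8 in naïve retina. The log2 change at 2W was -1.17 ± 0.15 (edgeR adjusted p = 0.0523, DESeq2 adjusted p = 5.09e-06). It was called when the sex term was dropped (edgeR adjusted p = 0.0245), in the fit of all 12 retina libraries (edgeR adjusted p = 0.0458) and without the male or the female crush 3D pool (edgeR adjusted p = 0.0315 and 0.0387). On log2(FPKM + 1) it was -0.70 (limma adjusted p = 0.34). In CPM Gclm lay below both naïve pools in 5 of 5 injured retina groups, glaucoma included, as did 1.55% of 30097 genes. In FPKM this held in 3 of the 5, and crush 3D and glaucoma 2W overlapped naïve. Those 5 groups share the same 2 naïve libraries.

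At 2W after crush the 6 ganglion cell markers summed to 59.4 and 58.7 FPKM in retina, against 504 and 451 in naïve retina, and the microglia and macrophage markers stood at 30.7 and 28.8 FPKM against 13.9 and 14.95. The part of cell loss in the values of Gclm and Mt3 was not tested. Txnrd1 held between 15.35 and 19.6 CPM in all 12 retina libraries, with log2 changes from -0.03 to 0.16 in the 5 injured groups. Srxn1 was 100.5 and 159 CPM in retina at 3D against 10.7 and 55.8, a log2 change of 2.21 (edgeR adjusted p = 0.541). In FPKM it was 40.8 and 64.7 against 14.7 and 22.2, a change of 1.46 on log2(FPKM + 1) (limma adjusted p = 0.29). Without the female naïve pool the count change was 1.302, and without the male naïve pool it was 3.50 and called (edgeR adjusted p = 0.000104). At 2W it was 0.97 with all libraries, -0.04 without the female naïve pool, and 2.17 and called without the male naïve pool (edgeR adjusted p = 0.00285). In FPKM the 2W pools were 23.1 and 18.4 and overlapped naïve, with a change of 0.18 on log2(FPKM + 1) (limma adjusted p = 0.875).

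**Figure D3:**
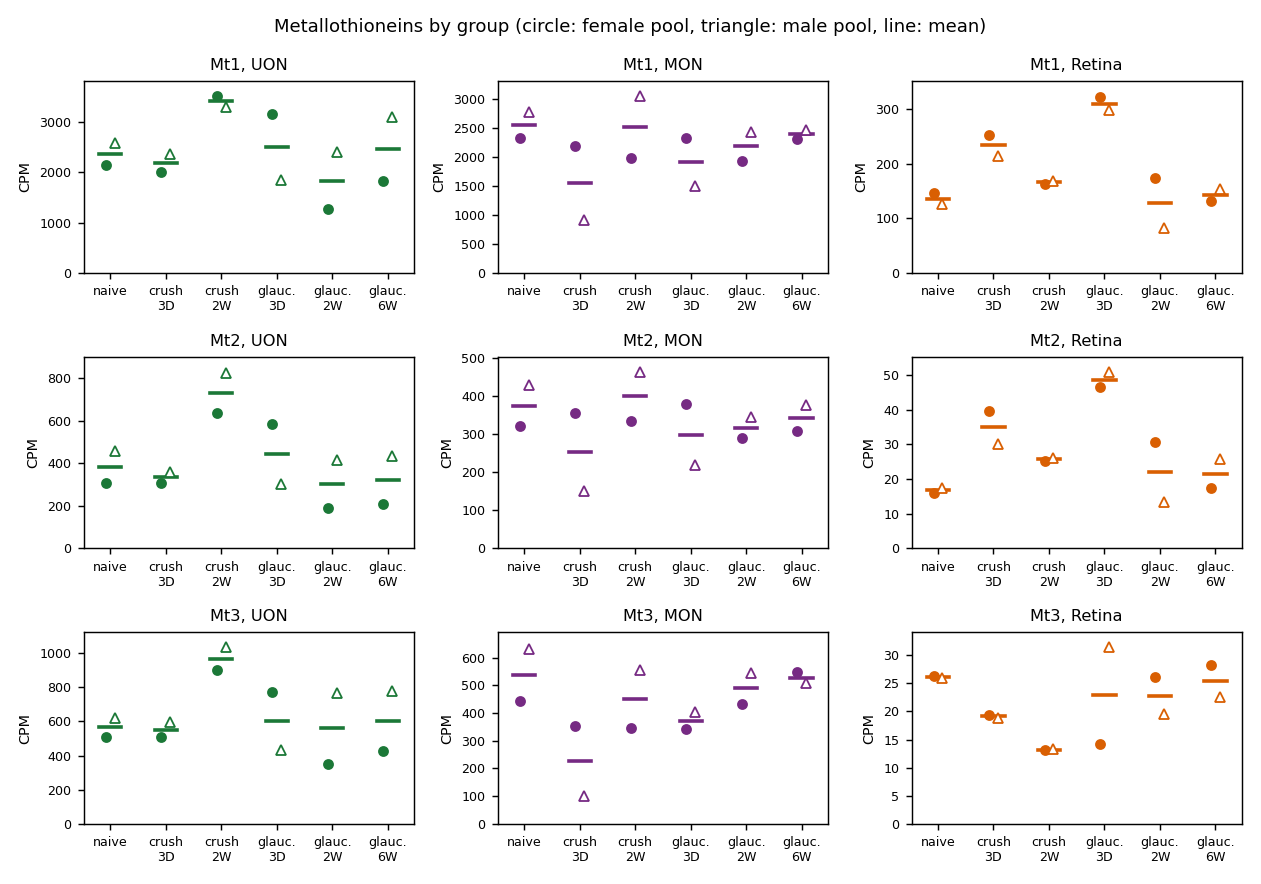
CPM of Mt1, Mt2 and Mt3 by group in UON, MON and retina, with filled circles for female pools, open triangles for male pools and lines for their mean. UON crush 2W (Mt1 3530 and 3305 CPM) and retina glaucoma 3D (Mt1 323 and 298 CPM) stand above naïve in both pools, and the male MON crush 3D pool is the lowest nerve library for each gene.

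**Figure D4:**
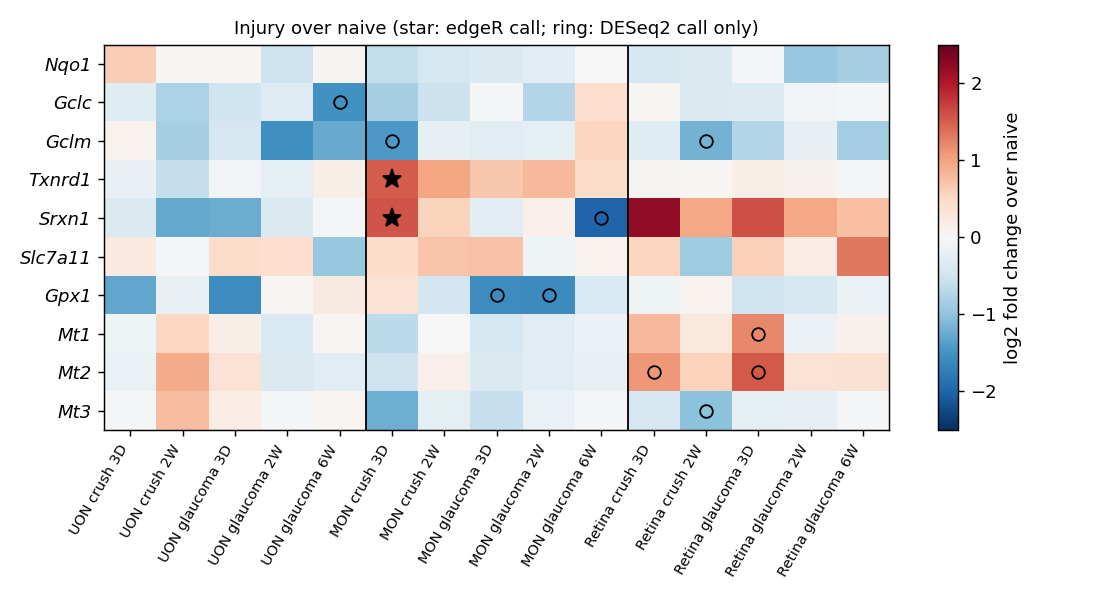
Log2 fold change over naïve of the 10 genes in the 15 injured groups, from edgeR, with a star for an edgeR call and a ring where DESeq2 alone called the gene. The 2 stars are Txnrd1 (1.51) and Srxn1 (1.57) in MON crush 3D, and 10 further tests carry a ring.

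After microbead injection none of the 90 tests was called by edgeR. Of all genes tested, 0% were called in the 6 nerve comparisons and in retina at 2W, 0.00429% in retina at 3D and 0.00858% in retina at 6W. DESeq2 called 6 of the 90, and 0.15% to 2.65% of all genes in the single comparisons (0.669% in retina at 3D, and 2.3% and 2.65% in MON at 3D and 2W). An unadjusted edgeR p under 0.05 was held by 14 of the 90, and by 2.01% to 8.78% of all genes. The smallest edgeR adjusted p among the 90 was 0.37.

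Mt1 and Mt2 were called higher by DESeq2 in retina at 3D after microbeads. Mt1 was 323 and 298 CPM against 146 and 126 in naïve retina, and its pools were the highest of the 12 retina libraries. On the log2 scale the change was 1.20 ± 0.29 (edgeR adjusted p = 0.575, DESeq2 adjusted p = 0.00529). Mt2 was 46.7 and 50.9 CPM against 15.9 and 17.5, a log2 change of 1.54 ± 0.39 (edgeR adjusted p = 0.605, DESeq2 adjusted p = 0.00555). Mt3 was 14.2 and 31.6 CPM in the same pools and overlapped naïve. By 2W and 6W both Mt1 and Mt2 overlapped the naïve pools in CPM, for Mt2 at 6W narrowly (17.45 against 17.51). In FPKM the Mt2 pools at 6W were 37.1 and 55.9 against 32.1 and 36.2, without overlap. The astrocyte markers summed to 179.8 and 159 FPKM in the 3D pools against 120 and 124 in naïve retina, the Müller glia markers to 835 and 1058 against 954 and 904, and the microglia and macrophage markers to 33.8 and 43.8 against 13.9 and 14.95. Their part in the change was not tested.

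Gpx1 was lower in MON at 3D and 2W after microbeads, by DESeq2. It was 325 and 265 CPM at 3D, and 312 and 259 at 2W, against 771 and 867 in naïve MON. The log2 changes were -1.57 ± 0.43 (edgeR adjusted p = 0.443, DESeq2 adjusted p = 0.0146) and -1.59 ± 0.43 (edgeR adjusted p = 0.37, DESeq2 adjusted p = 0.0103). Without the male naïve pool they were -0.98 and -1.003. The neutrophil and monocyte markers summed to 1753 and 289 FPKM at 3D and to 757 and 387 at 2W, against 71.5 and 107 in naïve MON, and their part in the changes was not tested. At 6W the female pool was 1110 CPM and the male pool 349.6, and the groups overlapped. In UON at 3D Gpx1 was 381 and 258.5 CPM against 1445 and 544, a log2 change of -1.58 that neither tool called (edgeR adjusted p = 1, DESeq2 adjusted p = 0.452).

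Gclc was 10.3 and 13.3 CPM in UON at 6W after microbeads against 27.3 and 40.6 in naïve UON. The log2 change was -1.52 ± 0.32 (edgeR adjusted p = 1, DESeq2 adjusted p = 0.0486). Gclm in the same pools was 9.27 and 35.3 CPM against 57.4 and 52.5, a log2 change of -1.27 (edgeR adjusted p = 1). At 2W the male UON pool had 48 Gclm counts in all (3.098 CPM), with 0 on the main coding transcript ENSMUST00000029769, and its counts per FPKM were 0.148 of the median library. Its FPKM was 3.76, against 6.83 in the female pool.

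Srxn1 in MON at 6W shows the effect of the unit. It was 14.7 and 19.4 CPM against 70.5 and 59.5 in naïve MON, a log2 change of -1.998 ± 0.26 (edgeR adjusted p = 0.639, DESeq2 adjusted p = 7.16e-08). In FPKM it was 17.3 and 14.9 against 20.4 and 17.2, a change of -0.21 on log2(FPKM + 1) (limma adjusted p = 0.846). Both MON 6W pools are among the 6 with counts on the short transcript. Nqo1 was called by neither tool in any glaucoma or crush comparison, and its largest change was -0.95 in retina at 2W after microbeads, at 2.36 and 1.55 CPM against 3.40 and 4.07.

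**Figure D5:**
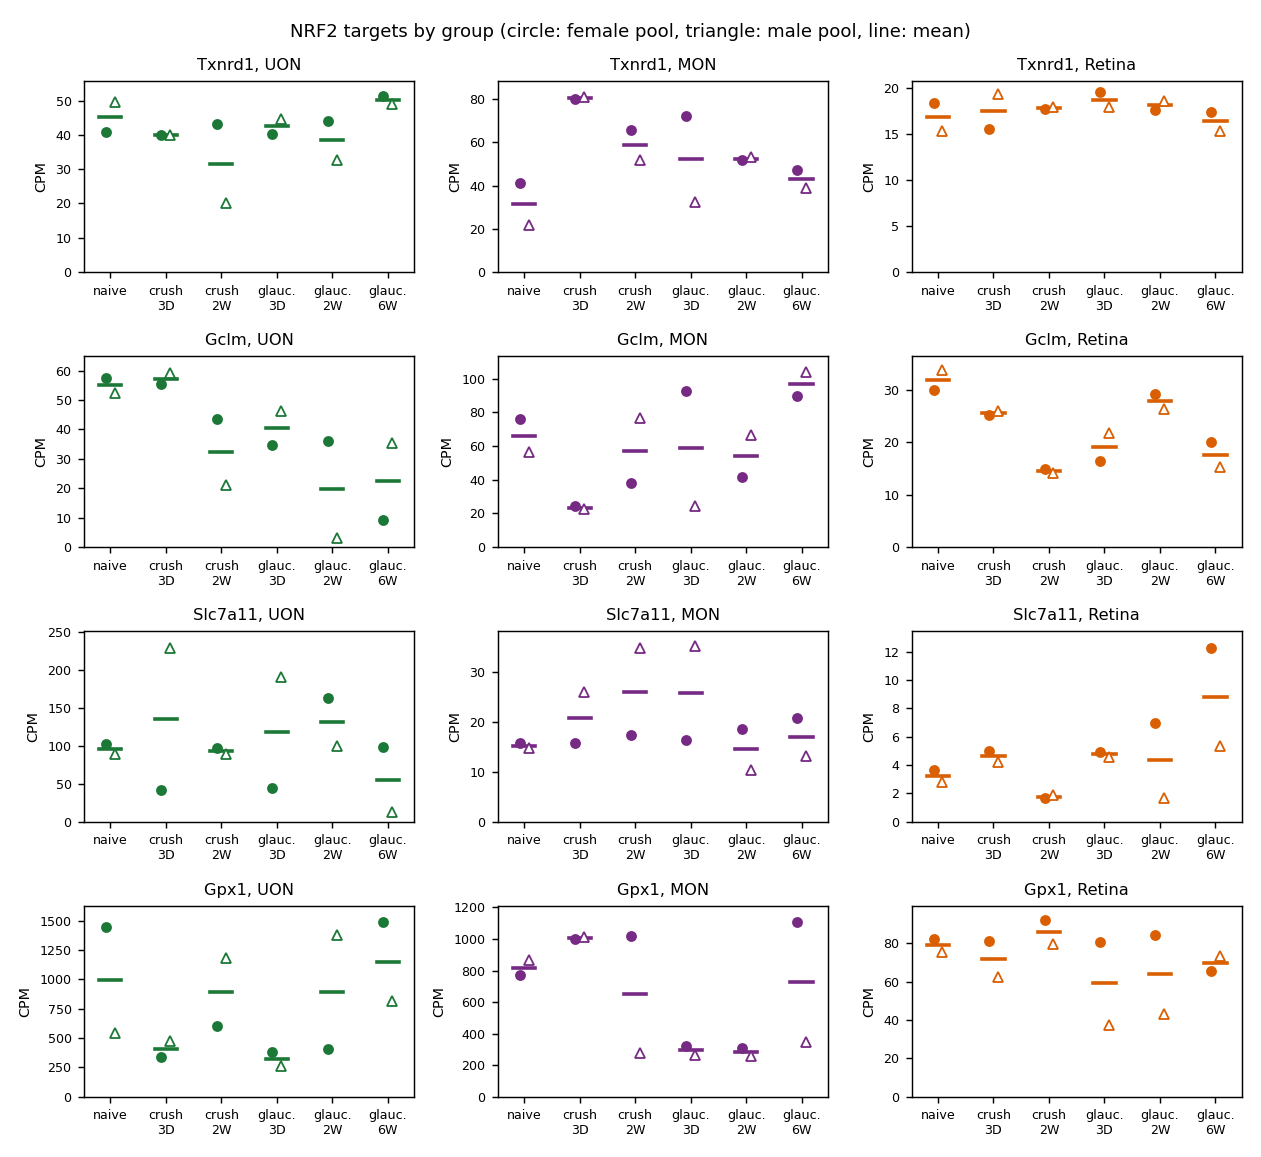
CPM of Txnrd1, Gclm, Slc7a11 and Gpx1 by group in UON, MON and retina, with filled circles for female pools, open triangles for male pools and lines for their mean, and an axis of its own in each panel. Txnrd1 in MON crush 3D (80.3 and 81.2 CPM) stands above naïve MON (41.0 and 21.9), and Gclm in retina lies below naïve (30.1 and 33.8) in the 5 injured groups.

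Whether a change differed between tissues was tested as an interaction, in 150 tests (10 genes, 15 pairs of responses). None was called by edgeR, where 0% to 0.24% of all genes were called in the single comparisons, DESeq2 called 3 of the 150, and 0.14% to 7.31% of all genes in the single comparisons. An unadjusted edgeR p under 0.05 was held by 25 of the 150, and by 2.52% to 14.3% of all genes. So the 2 calls in MON were not shown to be particular to MON. The crush 3D change of Txnrd1 was 1.41 ± 0.36 larger in MON than in retina on the log2 scale (edgeR adjusted p = 0.138, DESeq2 adjusted p = 0.0182), and the change in UON over that in MON was -1.65 ± 0.53 (edgeR adjusted p = 0.588). The crush 3D change of Srxn1 in UON over that in MON was -1.89 ± 0.58 (edgeR adjusted p = 0.544).

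The crush 2W change of Mt3 was 1.79 ± 0.25 larger in UON than in retina (edgeR adjusted p = 0.102, DESeq2 adjusted p = 3.29e-05), and the edgeR test called it without the female UON crush 2W pool (log2 1.75, edgeR adjusted p = 0.02). The crush 3D changes of Mt1, Mt2 and Mt3 in MON over those in retina were -1.50, -1.63 and -0.84 (edgeR adjusted p = 0.275, 0.242 and 0.652). Without the female MON crush 3D pool these were -2.44, -2.55 and -2.20 and were called, and without the male one they were -0.75, -0.87 and 0.19. At 2W after crush the response of Txnrd1 in UON over that in MON was -1.56 (edgeR adjusted p = 0.374). Without the female UON crush 2W pool it was -2.27 and called (edgeR adjusted p = 0.0249), and without the male one -0.94.

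For Srxn1 the crush 2W response in UON over that in MON was -1.84 in counts (edgeR adjusted p = 0.336). It was -2.82 and called without the male UON crush 2W pool (edgeR adjusted p = 0.0448), which leaves only the female pool with counts on the short transcript, and -1.11 without that female pool. In FPKM the UON pools were 42.7 and 30.6 after crush against 40.9 and 48.1 in naïve tissue, and the MON pools 29.7 and 30.8 against 20.4 and 17.2. The glaucoma 6W response of Srxn1 in MON over that in retina was -2.74 in counts (edgeR adjusted p = 0.528), and was called by DESeq2 (adjusted p = 0.0441) and by edgeR without the male naïve retina pool (-4.40, edgeR adjusted p = 0.0488). Without the female naïve retina pool it was -1.73. In FPKM the MON pools were 17.3 and 14.9 against 20.4 and 17.2, and the retina pools 22.0 and 20.4 against 14.7 and 22.2. These differences of response were not tested in FPKM.

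Crush was set against microbeads at the same time in the same tissue in 60 tests. None was called by edgeR (0% to 0.113% of all genes called in the single comparisons), DESeq2 called 2 of the 60, and 10 had an unadjusted edgeR p under 0.05. The 2 DESeq2 calls were in MON at 3D, where DESeq2 called 3.34% of all genes and 10.4% had an unadjusted edgeR p under 0.05. In the other 5 comparisons DESeq2 called 0.0286% to 2.58% of all genes, and 1.07% to 10.2% had such a p. Srxn1 was 176 and 188.5 CPM after crush against 42.7 and 69.4 after microbeads, a log2 difference of 1.76 ± 0.23 (edgeR adjusted p = 0.101, DESeq2 adjusted p = 8.38e-09), called by edgeR without the female crush 3D pool (log2 1.74, edgeR adjusted p = 0.034). The female microbead pool is among the 6 with counts on the short transcript and had 33.2 FPKM against 18.9 in the male pool, while the crush pools had 55.9 and 59.2. Gpx1 was 999.8 and 1011 CPM after crush against 325 and 265 after microbeads, a log2 difference of 1.84 ± 0.51 (edgeR adjusted p = 0.355, DESeq2 adjusted p = 0.0103). Mt3 had a log2 difference of -0.67 there (edgeR adjusted p = 0.687), which was -1.99 and called without the female crush 3D pool (edgeR adjusted p = 0.0347) and 0.13 without the male one (edgeR adjusted p = 0.998).

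The spread between the 2 pools of a group, beyond a sex difference shared by the groups, limited how small a change could be seen. The median fold between pools, over the 6 groups of a tissue, was 1.14 to 2.95 across the 10 genes in UON, 1.13 to 1.82 in MON and 1.11 to 1.44 in retina. Slc7a11 in UON ranged from 12.5 to 229 CPM. Its pools were 42.4 and 229 at crush 3D, 45.0 and 192 at glaucoma 3D, and 99.2 and 12.5 at glaucoma 6W, with neither sex always the higher. The fibroblast markers of sclera and meninges were higher in the same pool as Slc7a11 in 4 of 6 UON groups, the exceptions being naïve and crush 2W, and their part was not tested. In retina Slc7a11 was 12.3 and 5.37 CPM at glaucoma 6W against 3.67 and 2.83, a log2 change of 1.32 (edgeR adjusted p = 0.855).

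Within tissues Mt1 and Mt2 varied together more than any other pair of the 10 genes. After each tissue's mean was subtracted, Pearson's r of their log2 CPM was 0.938 over the 36 libraries, against 0.558 for Mt1 with Mt3 and 0.524 for Mt2 with Mt3. The ratio of Mt1 to Mt2 in FPKM stayed between 1.89 and 3.08 on the log2 scale in all 36 libraries, with medians of 2.55 in UON, 2.60 in MON and 2.58 in retina. The log2 ratio of Mt1 to Mt3 had medians of 1.94, 2.28 and 2.94 in the same order, and reached 4.45 in retina. Gclc and Gclm, which form 1 enzyme, had an r of 0.491, and Txnrd1 and Srxn1 0.262. These values describe libraries that share depth, tissue makeup and pools, and carry no test.

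The genes most like a member in this sense were drawn from 16866 genes. For Mt1 they were Mt2, Dbi (0.746), Morn2 (0.738), Tst (0.688) and Id3 (0.687), and for Mt2 they were Mt1, S100a6 (0.773), Dbi (0.76), Morn2 (0.741) and Id3 (0.725). For Mt3 they were Enho (0.832), Tppp3 (0.813), Shd (0.806), Fbxo2 (0.797) and the astrocyte marker S100b (0.796). For Slc7a11 they were Ddr2 (0.744), Pde1a (0.74), Tbx15 (0.714), Osr1 (0.685) and Lama4 (0.684). For Srxn1 they were led by Col4a1 at 0.613, and for Gpx1 by Gm4792 at 0.627.

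Promoter sequence was available from RefSeq (GRCm38.p6) for 9 of the 10 genes, in windows of 250 bases before to 50 after the annotated start, and was searched on both strands for the core of the antioxidant response element (TGACNNNGC) and for 2 forms of the metal response element core (TGCACNC and TGCGCNC). Of 32851 windows, 12.4%, 12.6% and 15.4% hold them. Stretches of 3 windows are printed for Mt2, Txnrd1 and Gclm, the genes in which the antioxidant response core lies before the start, with matches in capitals, each on the plus strand with 20 bases on either side.
Mt2, chr8:94172375-94172594: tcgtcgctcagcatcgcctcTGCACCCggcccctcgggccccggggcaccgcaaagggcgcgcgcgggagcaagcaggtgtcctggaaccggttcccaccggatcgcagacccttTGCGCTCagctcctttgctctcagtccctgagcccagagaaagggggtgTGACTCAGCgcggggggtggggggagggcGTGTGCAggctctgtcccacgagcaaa
Txnrd1, chr10:82859094-82859142: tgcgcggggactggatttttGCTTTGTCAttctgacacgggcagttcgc
Gclm, chr3:122245399-122245511: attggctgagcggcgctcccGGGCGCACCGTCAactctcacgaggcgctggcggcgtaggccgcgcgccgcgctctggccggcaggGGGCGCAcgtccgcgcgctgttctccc
The antioxidant response core was found in 4 of the 9 genes. It lay from -79 to -71 of the start in Mt2, from -92 to -84 in 1 of the 3 windows of Txnrd1, from -134 to -126 in Gclm, where it overlaps a metal response match, and from 29 to 37 in Srxn1. The TGCACNC form was found in Mt1, Mt2 and Mt3, and the TGCGCNC form in Gclm, Srxn1, Mt1 and Mt2. A match describes letters in a window and is not a binding site shown by these data.

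Other genes of the same pathways were followed as lists. Of 24 further NRF2 targets, all tested in MON, 3 rose at 3D after crush and none fell, where 3.61% of all genes were called higher and 0.655% lower, with a list median of 0.20 on the log2 scale against -0.0049 over all genes. They were Hmox1, the inducible haem oxygenase (log2 5.97, edgeR adjusted p = 0.00533), Osgin1, an oxidative stress inhibitor of growth (3.26, edgeR adjusted p = 0.0272), and Ftl1, the ferritin light chain (2.86, edgeR adjusted p = 0.0307). At 2W only Hmox1 among the 24 was called (2.13, edgeR adjusted p = 0.0406). The crush 3D change of Hmox1 was called as a difference between tissues, at -5.01 for UON over MON (edgeR adjusted p = 0.0384) and 4.55 for MON over retina (edgeR adjusted p = 0.0251).

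Of 22 tested genes of glutathione, thioredoxin and peroxide handling, 1 was called in MON at 3D, a share near that of all genes. It was the secreted glutathione peroxidase Gpx3 (log2 2.61, edgeR adjusted p = 0.0153), which also rose at 2W (3.15, edgeR adjusted p = 0.0164), where 2.13% of all genes were called higher. Of 10 genes of the cystine exchanger and the ATF4 response, 3 rose at 3D, Trib3 (3.69), Asns (2.37) and Atf3 (1.595), and Atf3 also rose at 2W (2.47, edgeR adjusted p = 0.0153). Of 11 tested genes of metal handling none was called at 3D, and the zinc importer Slc39a14 rose at 2W (1.41, edgeR adjusted p = 0.0484). The regulators NRF2 (Nfe2l2), Keap1 and Mtf1 were not called in any of the 15 comparisons with naïve, nor was Bach1, which was 1.07 in MON at 3D (edgeR adjusted p = 0.0889).

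Of 8 glucocorticoid-responsive genes in MON, 2 fell at 3D after crush and none rose, Klf9 (-2.35, edgeR adjusted p = 0.0114) and Zbtb16 (-2.13, edgeR adjusted p = 0.0456). There 0.655% of all genes were called lower and 3.61% higher. At 2W 2 fell, Zbtb16 (-2.47, edgeR adjusted p = 0.0424) and Tsc22d3 (-1.59, edgeR adjusted p = 0.0359), where 0.595% of all genes were called lower and 2.13% higher. Of 8 STAT3 genes 3 rose at 3D and none fell, Lif (4.67), Timp1 (4.43) and Socs3 (2.995), and 4 rose at 2W, led by Timp1 (3.87), Lif (3.26) and Osmr (2.34). In retina at 2W after crush 1 of 7 tested STAT3 genes, Serpina3n, rose (3.24, edgeR adjusted p = 0.0349), where 0.075% of all genes were called higher. No gene of these pathway lists was called by edgeR in UON after crush or in any tissue after microbeads. In those comparisons edgeR called at most 0.0281% of all genes, so lists this short could hardly hold a call.

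Before injury these lists also differed between nerve and retina. Of 24 further NRF2 targets, 12 were called higher in UON and 9 in MON than in retina, and none lower, where 18.2% and 16.7% of all genes were called higher, with list medians of 1.16 and 0.93 against -0.17 and 0.0031 over all genes. Of 22 glutathione, thioredoxin and peroxide genes, 10 were called higher in each nerve region and none lower, led by Txnip (5.65 and 5.45). Of 11 metal handling genes, 8 were called higher in UON and 4 in MON. Among the NRF2 regulators, Maff (4.16 and 3.44), Mafk (3.69 and 4.13) and Nfe2l1 (2.54 and 1.79) were called higher in UON and MON than in retina. Nfe2l2 and Bach1 were also called higher in both, by smaller differences. Cul3 was called lower (-2.04 and -2.07), and Keap1 was not called (0.27 and 0.44). Between UON and MON, 3 of the 24 NRF2 targets were higher in UON, led by Ugt1a6a (4.16), and 4 lower, led by the ferritin heavy chain Fth1 (-2.30), where 4.83% and 4.8% of all genes were called. Of the 11 metal handling genes, Cp (2.28), Slc39a14 (1.33) and Atp7a (1.20) were higher in UON and Mtf1 was lower (-1.10, edgeR adjusted p = 0.0222). Nfe2l2 (0.54), Keap1 (-0.17) and Bach1 (0.18) were not called between UON and MON.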

How the data were processed

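RNA of the 36 libraries was sequenced by the authors as pairs of 150 base reads, aligned to GRCm38 with HISAT2 2.2.1 and assembled with StringTie 1.3.0 on Gencode M25. The deposited estimated counts per gene and transcript were made by the authors with StringTie's count script from coverage and transcript length, with no normalization. The deposited FPKM and TPM are the authors' StringTie values, and TPM was not used in a comparison. Strand is not given in the sources used here. A few deposited FPKM lay just below 0 and were set to 0.

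Estimated counts were tested with edgeR 4.0.16 in R 4.3.3 (TMM, filterByExpr at its settings of 10 counts and 15 in total, quasi-likelihood F test), with group and sex as terms. The 6 naïve libraries were fitted together, and each tissue and model with its naïve libraries. Differences of response were interactions, and crush was set against microbeads within each tissue. The study's limits defined a call (adjusted p under 0.05, log2 change beyond 1), over all genes tested. SE is the log2 change divided by the root of F. CPM printed per pool use TMM factors over all 36 libraries. Overlap of pools within a comparison was counted with the factors of its own fit, so close pools can differ from the printed CPM. DESeq2 1.42.0 and limma 3.58.1 (log2(FPKM + 1) and + 0.1) were alternatives, beside RLE scaling, no filter, no sex term, wider fits and leaving out each library. The edgeR and DESeq2 tests were run on simulated counts of known answers for the naïve, MON crush and retina glaucoma fits, at a fixed dispersion. The other fits, differences of response included, were not simulated.

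The same mice gave all 3 tissues of a group, and female minus male deviations of naïve libraries correlated at -0.053 (UON with MON), 0.018 (UON with retina) and 0.0058 (MON with retina) over 23685 genes. The p-values rest on the spread between the 2 pools of a group that is left after the sex term. That term removes a female to male difference shared by the groups of a tissue or fit. The 10 genes are named in every comparison. Of the other lists, up to 3 called genes per list and direction and the regulators are named, and for 6 genes the 5 with the highest r. Members and lists were chosen with earlier results of these data known.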

Additional observations from a re-analysis of the deposited data

How the results depend on the processing

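Counts of calls among the 10 genes moved with the tool and the filter. After crush, 2 of 60 tests were called by edgeR, 6 by DESeq2, 5 with no filter on low counts and 4 with no replicate block (the sex term dropped), where the added calls were Gclm and Mt3 in retina at 2W. RLE scaling and limma on either FPKM scale gave 2, and a fit of all 12 libraries of a tissue 3. Leaving out 1 library gave 0 to 5. After microbeads, 0 of 90 were called by edgeR, 6 by DESeq2 and 1 with no filter, and leaving out 1 library gave 0 to 0. Of 150 differences of response, 0 were called by edgeR, 3 by DESeq2 and 1 with no filter, and leaving out 1 library gave 0 to 3. Of 60 tests of crush against microbeads, 0 were called by edgeR, 2 by DESeq2 and 2 with no filter, and leaving out 1 library gave 0 to 2. The naïve count was 16 of 30, and 14 to 18 under all alternatives, 15 to 18 when 1 library was left out. Dropping the block changed no other family's count. Among single values, 588 kept their side of the threshold, 57 passed it, 18 lost it, and 0 changed sign while called. Direction was not compared where a value was called in neither fit, and some of the 588 changed sign there. Gpx1 in MON at 2W after crush was -0.48 with all libraries and 0.41 without the male crush 2W pool. The cause of these differences was not tested. With 2 pools per group, leaving one out leaves a lone pool assumed to vary like the others, and the depth of a pool (16.2 to 78.1 M counts) and its dissection limit the smallest change that can be seen.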

Other observations

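The share of a gene's estimated counts given to each transcript varied between libraries for Txnrd1 and Slc7a11. In Txnrd1 the coding transcript ENSMUST00000219962 held 20.7 to 92.8% over the 36 libraries (median 69.2%), ENSMUST00000020484 held 0 to 48.4% and ENSMUST00000219442 held 0.9 to 55.4%. In Slc7a11 the coding transcript ENSMUST00000029297 held 45.8 to 96.8% (median 89.2%), and ENSMUST00000193838, annotated as a retained intron with 1 exon, held 0.811 to 42.2%. In Nqo1, Gclc and Mt2 a single transcript held at least 93.8% in each library. These shares are estimates over transcripts that share exons, and they were not compared between groups.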
